A study of Saccharomyces cerevisiae with 12 samples.

Results

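The hexose transporter genes HXT1 to HXT8, HXT13 and HXT16 of Saccharomyces cerevisiae were taken by the systematic names of their array probes. All 10 were found, with 1 probe in 2 spots each, among 6224 genes on the array, and all 10 were among the 5827 genes tested. RNA came from the strain L40, known as a host for two-hybrid assays, in 3 groups of 4 arrays. The 58F cells stably expressed the intrabody scFv-58F, an antibody fragment made inside the cell, which is directed against histone H3 acetylated at K9. The 112A cells stably expressed scFv-112A, which the labels name as the control and which recognises the acetylated integrase of HIV-1, and the wild type carried no intrabody. Per the labels' protocols, both intrabody strains were grown on SD-Leu medium and the wild type on YPD until the last culture, which for every group started at an OD600 of 0.2 in YPD and shook overnight at 30 °C. Earlier medium and the presence of an intrabody therefore cannot be told apart in comparisons with wild type. The promoter of the intrabodies, the number of clones and the glucose left at harvest are not given in the sources used here. Nor do the labels say that the replicates were separate cultures, so the p-values measure the spread between these samples, which may be technical.

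Hexose transporters are membrane proteins that let glucose, fructose and mannose enter the yeast cell by facilitated diffusion. The family divides the work by affinity: low-affinity members serve cells in plentiful glucose, and high-affinity members serve cells in scarce glucose. The sensors Snf3 and Rgt2 detect outside glucose and lead to removal of Mth1 and Std1, which lets go the repressor Rgt1 from many HXT promoters, while the kinase Snf1 and the repressors Mig1 and Mig2 set glucose repression.

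Values below are levels on a log2 scale, relative to the array's own 75th percentile of signal, unless called a change, which is the difference of 2 group means ± SE, with n = 4 arrays per group throughout. Calls were made where the adjusted p was under 0.05. Since probes differ in brightness, no gene's level is compared with another's. A level from a whole culture cannot tell fewer expressing cells from less RNA per cell.

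The 4 arrays of each group lay on 1 slide and were scanned as a set, so slide, scan and group cannot be told apart in any comparison. The 75th percentile of signal ranged from 4761 to 5804 in 58F, from 4969.5 to 5253 in 112A and from 5560 to 6018 in replicates 2 to 4 of wild type, but was 9326 in replicate 1 of wild type. That array stood apart for several hexose transporters, and some results are given with and without it. Without that array, the change in 58F against wild type was 1.29 for HXT1, 1.00 for HXT3, 0.70 for HXT4 and -0.48 for HXT6. LEU2, the gene that SD-Leu medium selects for, was higher in both intrabody groups than in wild type (change 4.62 ± 0.08 for 58F and 4.35 ± 0.08 for 112A). All 7 marker genes of mating type a were above background on all 12 arrays. Of 4 marker genes of mating type alpha, MF(ALPHA)1 was above background on 0 arrays and MF(ALPHA)2 on 2 arrays of 58F, 0 of 112A and 1 of wild type, whereas STE3 and SAG1 were above it on all 12.

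HXT1 to HXT4 and HXT16 were higher in 58F than in both other groups, and HXT5 was lower. Against 112A, 6 of the 10 members were called, 5 higher and 1 lower. Over all genes the share called was 32.2%, with 13.7% higher and 18.5% lower. Against wild type, 8 members were called in 58F, 6 higher and 2 lower, where 61.7% of all genes were called, 28.7% higher and 33% lower. In 112A against wild type, 5 members were called, 4 higher and 1 lower, against 48.3% of all genes, 22.7% higher and 25.6% lower, so this total is close to the share of all genes. The members' median change was 0.49, 1.02 and 0.27 in these comparisons, in the same order, and the median over all genes was -0.02, -0.02 and -0.01. The comparisons share groups of arrays and are not independent of each other. The members and the gene lists below were chosen with earlier results of these data known, so their counts only describe them. The arrays of the 2 groups did not overlap for 8 members in 58F against 112A (34.6% of all genes), for 7 in 58F against wild type (57.7%) and for 5 in 112A against wild type (39.9%).

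**Figure D1:**
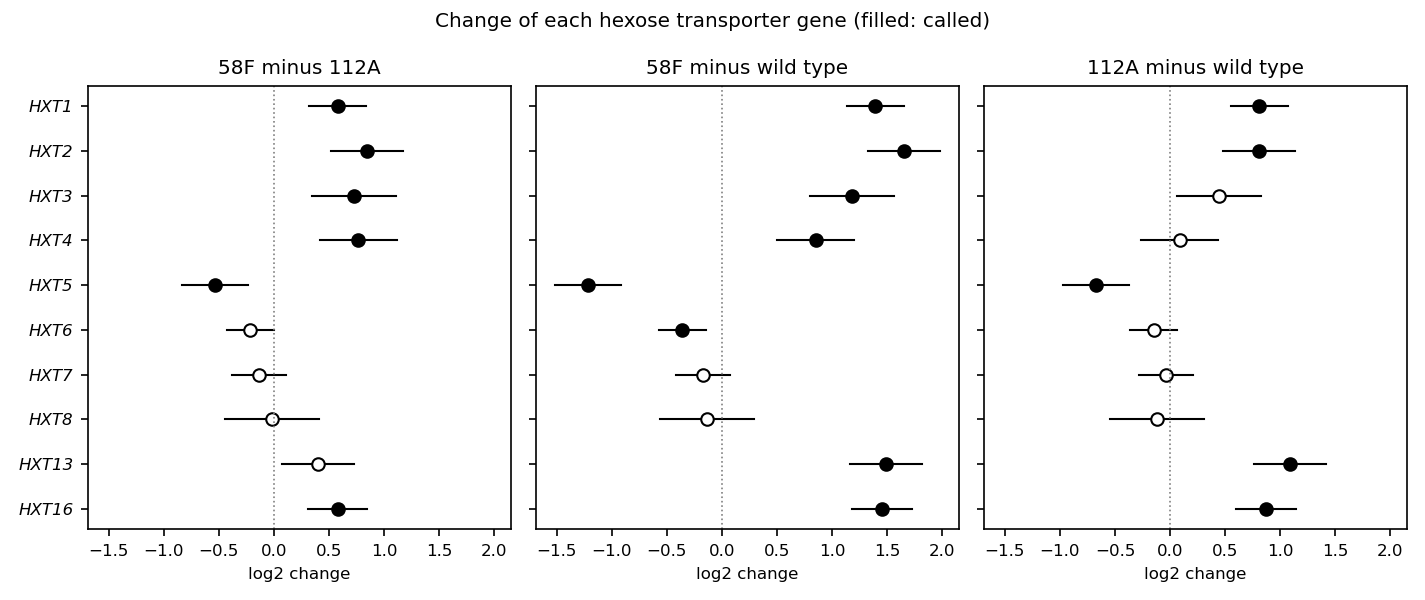
Change of each hexose transporter gene in the 3 comparisons. The horizontal axis is the log2 change between group means, points are the fitted changes, lines are 95% confidence intervals, and filled points were called at an adjusted p under 0.05. HXT2 has the highest change in 58F against 112A (0.85) and against wild type (1.65), and HXT5 is the called gene below 0 in all 3 comparisons.

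HXT1 (YHR094C) and HXT3 (YDR345C) encode low-affinity transporters. HXT1, the member known for induction by high glucose, read 0.30, 0.36, 0.23 and 0.40 in 58F, -0.36, 0.03, -0.52 and -0.18 in 112A, and -1.37, -0.97, -0.99 and -0.94 in wild type, in the order of replicates 1 to 4. The groups formed 3 separate ranges, with 58F highest and wild type lowest. HXT1 was 1.5-fold higher in 58F than in 112A (change 0.58 ± 0.12, adjusted p = 0.00368), 2.62-fold above wild type (1.39 ± 0.12, adjusted p = 1.88e-06), and in 112A 1.75-fold higher than in wild type (0.81 ± 0.12, adjusted p = 0.000231). HXT3 read 2.13, 2.21, 2.19 and 2.19 in 58F, 1.44, 1.68, 0.99 and 1.67 in 112A, and 0.46, 1.19, 1.21 and 1.13 in wild type. All 58F arrays lay above the others, while 112A replicate 3 fell among the wild type arrays. HXT3 was 1.66-fold higher in 58F than in 112A (change 0.73 ± 0.17, adjusted p = 0.00839) and 2.27-fold higher than in wild type (1.18 ± 0.17, adjusted p = 0.000119). Between 112A and wild type its change of 0.45 ± 0.17 missed the threshold (95% interval 0.07 to 0.83, adjusted p = 0.0514). With 112A replicate 3 left out it was called (0.60, adjusted p = 0.00861), and without wild type replicate 1 it was 0.27 (adjusted p = 0.121).

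HXT2 (YMR011W) and HXT4 (YHR092C) encode transporters of higher affinity that are known for induction by low glucose. HXT2 read 3.43, 3.46, 3.35 and 3.79 in 58F, 2.19, 2.97, 2.85 and 2.64 in 112A, and 1.85, 1.92, 1.70 and 1.96 in wild type. Again the groups did not overlap, and the 112A arrays spread the most (SD 0.35, against 0.19 in 58F and 0.11 in wild type). HXT2 was 1.80-fold higher in 58F than in 112A (change 0.85 ± 0.15, adjusted p = 0.0017), which ranked 71 by size of change among the 5827 genes. Its level exceeded wild type 3.14-fold in 58F (1.65 ± 0.15, adjusted p = 2.97e-06) and 1.75-fold in 112A (0.81 ± 0.15, adjusted p = 0.00112). HXT4 read 0.57, 0.63, 0.63 and 0.82 in 58F, -0.27, 0.31, -0.39 and -0.05 in 112A, and -0.63, -0.05, -0.08 and 0.01 in wild type. The 58F arrays stood above the rest, and the 112A and wild type arrays were intermixed. HXT4 was 1.70-fold higher in 58F than in 112A (change 0.77 ± 0.16, adjusted p = 0.00424) and 1.81-fold higher than in wild type (0.85 ± 0.16, adjusted p = 0.000674). Its change between 112A and wild type was 0.09 ± 0.16 (95% interval -0.26 to 0.44, adjusted p = 0.681).

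**Figure D2:**
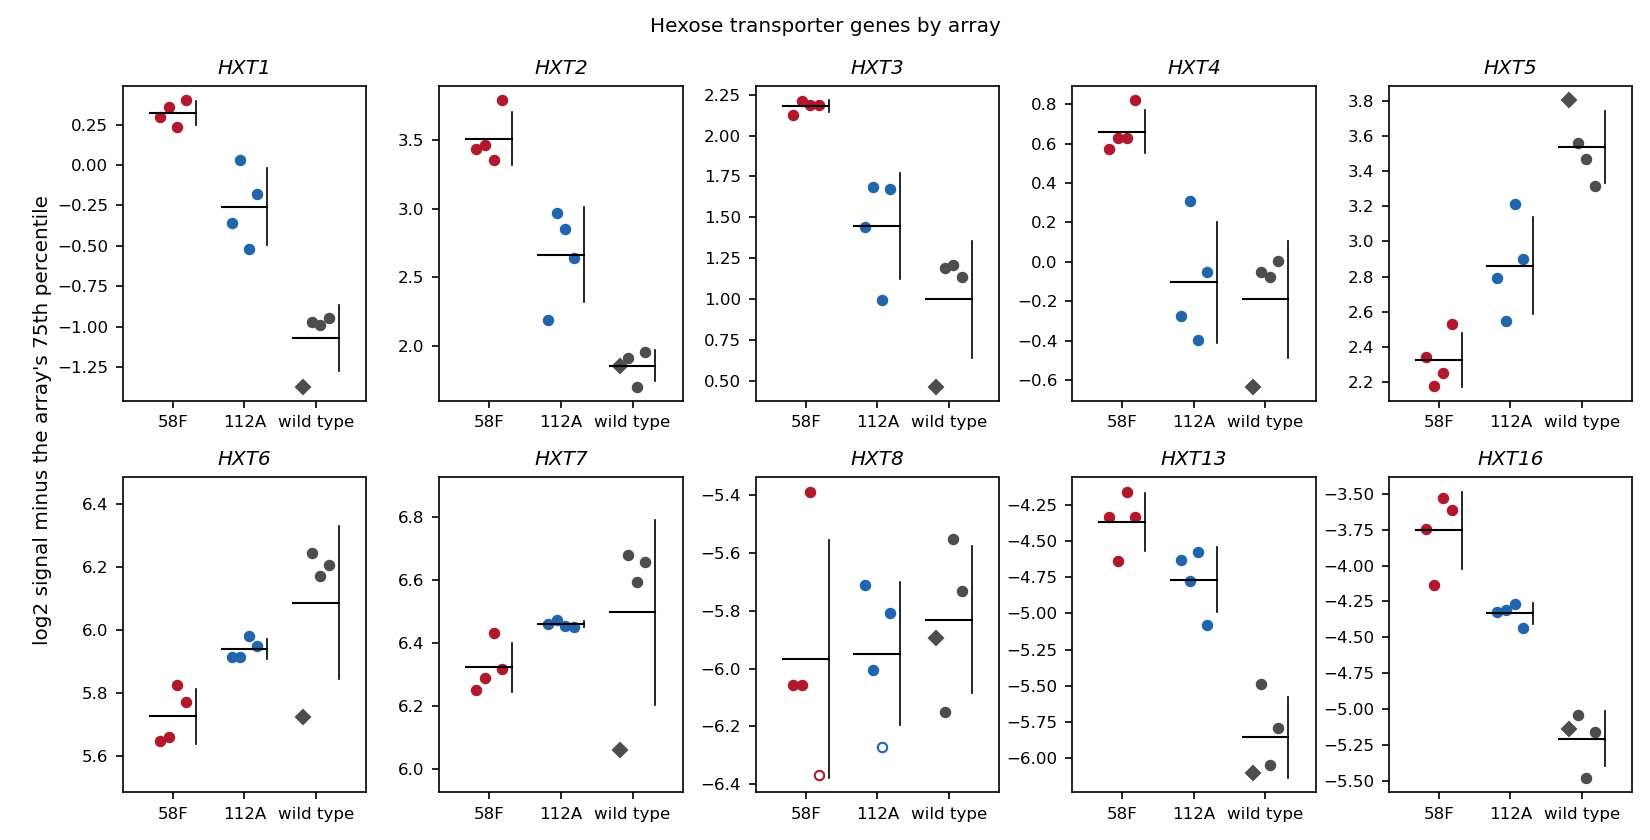
Level of each hexose transporter gene on every array. The vertical axis is the log2 signal minus the array's 75th percentile, points are arrays, horizontal lines are group means and vertical lines are 1 SD. The diamond is wild type replicate 1 and open points are not well above background. The wild type diamond lies below the other wild type points for HXT1, HXT3, HXT4, HXT6 and HXT7, and for HXT13, where it lies close to the next point (-6.10 and -6.04).

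HXT5 (YHR096C) encodes a transporter known from slowly growing and starved cells. It read 2.34, 2.18, 2.25 and 2.53 in 58F, 2.79, 2.54, 3.21 and 2.90 in 112A, and 3.80, 3.56, 3.47 and 3.32 in wild type. The order of the groups was the reverse of that of HXT1 and HXT2, without overlap, although 58F replicate 4 (2.53) lay next to 112A replicate 2 (2.54). HXT5 was 1.45-fold lower in 58F than in 112A (-0.54 ± 0.14, adjusted p = 0.0118) and 2.32-fold lower than in wild type (-1.21 ± 0.14, adjusted p = 1.6e-05). In 112A it was 1.60-fold lower than in wild type (-0.68 ± 0.14, adjusted p = 0.002).

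HXT6 (YDR343C) and HXT7 (YDR342C) encode nearly identical high-affinity transporters, so their probes may share signal and the values of each gene are uncertain. Their spots were bright, with signals of 239294 to 526988 for HXT6 and 383662 to 642421 for HXT7, and 0 of them were saturated. The saturation value of the arrays was 778518 to 778613. Whether signals this close to it were compressed was not tested, so small changes of these genes may be understated. HXT6 read 5.65, 5.66, 5.83 and 5.77 in 58F, 5.91, 5.91, 5.98 and 5.95 in 112A, and 5.72, 6.24, 6.17 and 6.20 in wild type. The 58F arrays lay below the 112A arrays, and wild type replicate 1 lay among the 58F arrays. HXT6 was 1.28-fold lower in 58F than in wild type (-0.36 ± 0.10, adjusted p = 0.00704), a call that was lost with cyclic loess scaling (-0.08, adjusted p = 0.143). HXT7 read 6.25, 6.29, 6.43 and 6.32 in 58F, 6.46, 6.47, 6.45 and 6.45 in 112A, and 6.06, 6.68, 6.59 and 6.66 in wild type. Wild type replicate 1 was the lowest of all 12 arrays and the other wild type arrays were the highest 3. HXT7 was called in no comparison, with changes of -0.14 ± 0.11 against 112A (95% interval -0.38 to 0.11) and -0.17 ± 0.11 against wild type (-0.42 to 0.07) in 58F, and -0.04 ± 0.11 (-0.28 to 0.21) in 112A against wild type. All 3 of its changes turned positive with cyclic loess scaling, to 0.03, 0.13 and 0.10, and none of these was called.

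Calls of both genes depended on wild type replicate 1. Without it, HXT6 was lower on the 58F than on the 112A arrays (-0.21, adjusted p = 0.00483) and lower in 112A than in the remaining wild type arrays (-0.27, adjusted p = 0.0016), neither of which was called with all 12 arrays (adjusted p = 0.116 and 0.234). HXT7 was then lower in all 3 comparisons (-0.14 with adjusted p = 0.0281, -0.32 with 0.000166 and -0.18 with 0.00847). On that array HXT6 lay 0.48 and HXT7 0.58 below the mean of the other wild type arrays (deviations -0.48 and -0.58). For all 33 genes with a wild type level above 5, the median deviation was -0.46, whereas it was -0.02 for the 1111 genes at levels from 0 to 2. HXT3 (-0.71), whose level falls in that last range, also lay lower on that array. So did HXT4 (-0.59) and HXT1 (-0.40), whose levels fall between -2 and 0, where 1900 genes had a median deviation of 0.04. HXT13 lay lower (-0.33), HXT5 lay higher (0.35), and HXT2 (-0.01), HXT8 (-0.08) and HXT16 (0.09) deviated by less than 0.1. The part of array brightness in these values was not tested.

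HXT13 (YEL069C) and HXT16 (YJR158W) belong to a set of closely related genes with HXT15 and HXT17, whose products are known to carry the polyols mannitol and sorbitol. Close relatedness makes each value uncertain, because probes may share signal. HXT16 read -3.75, -4.14, -3.53 and -3.61 in 58F, -4.33, -4.31, -4.27 and -4.43 in 112A, and -5.14, -5.04, -5.48 and -5.16 in wild type. As for HXT1 and HXT2, the groups did not overlap and 58F was highest. HXT16 was 1.49-fold higher in 58F than in 112A (change 0.58 ± 0.12, adjusted p = 0.00481), 2.74-fold higher than in wild type (1.45 ± 0.12, adjusted p = 1.98e-06), and in 112A 1.83-fold higher than in wild type (0.87 ± 0.12, adjusted p = 0.000199). Under alternative processing and with arrays left out, the size of the HXT16 change in 58F varied. It ran from 0.39 to 0.71 against 112A and from 1.11 to 1.58 against wild type. HXT13 read -4.34, -4.64, -4.16 and -4.33 in 58F, -4.63, -4.78, -4.58 and -5.08 in 112A, and -6.10, -5.48, -6.04 and -5.79 in wild type. Both intrabody groups lay above wild type, and 58F replicate 2 fell among the 112A arrays. HXT13 exceeded wild type 2.80-fold in 58F (1.49 ± 0.15, adjusted p = 6.46e-06) and 2.12-fold in 112A (1.09 ± 0.15, adjusted p = 0.000167). With normexp background the change against wild type in 58F was 0.93. Between 58F and 112A its change of 0.40 ± 0.15 missed the threshold (95% interval 0.07 to 0.73, adjusted p = 0.0599). It reached 0.49 (adjusted p = 0.0393) without 58F replicate 2.

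HXT8 (YJL214W) is a member whose physiological role is little defined. It was well above background on 3 arrays of 58F, 3 of 112A and 4 of wild type. Its levels ranged from -6.37 to -5.39 in 58F, from -6.27 to -5.71 in 112A and from -6.15 to -5.55 in wild type. The ranges covered each other. Its changes were -0.02 ± 0.20, -0.14 ± 0.20 and -0.12 ± 0.20, and the first of these allows a difference from -0.45 to 0.41. The 2 spots of a probe differed by up to 2.52 on the log2 scale for HXT8, 1.51 for HXT13 and 1.23 for HXT16, the 3 dimmest members, and these 3 are not among the 5297 probes of the authors' deposited table.

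The opposite moves of HXT2 and HXT5 were also read within each array, where scaling between arrays plays no part. The difference of HXT2 minus HXT5 was higher in 58F than in 112A by 1.38, higher in 58F than in wild type by 2.87, and higher in 112A than in wild type by 1.48. For this pair the groups did not overlap. Of 7 pairs examined, HXT1 minus HXT5 was also free of overlap in all 3 comparisons (shifts of 1.12, 2.60 and 1.49). HXT3 minus HXT5, HXT4 minus HXT5 and HXT3 minus HXT7 were higher in 58F than in both other groups without overlap, but 112A and wild type overlapped (shifts of 1.12, 0.76 and 0.49). HXT1 minus HXT3 overlapped in all 3 comparisons, and HXT6 minus HXT7 overlapped between 58F and 112A and was lower in both intrabody groups than in wild type (shifts of -0.19 and -0.11). The pairs were chosen after their values were seen, and only the shift between groups, not the size of the difference, can be read. Each shift is the change of the first gene minus that of the second, so it restates the changes above. Where both genes moved in opposite directions without overlap, as HXT2 and HXT5 did, the pair could not overlap either. Such pairs are therefore no separate evidence.

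The members' profiles over the 12 arrays were set against each other after centring each on its own mean. The measure was the root mean square difference on the log2 scale. A small value means that 2 centred profiles lay close together, which also happens when both genes varied little. The root mean square of a profile around its own mean was 0.20 for HXT6 and 0.17 for HXT7, against 0.59 for HXT1. Small differences from HXT6 or HXT7 therefore say less about a shared course. HXT8 was left out because it was not above background on every array. The smallest differences were between HXT6 and HXT7 (0.08), followed by HXT13 and HXT16 (0.17), HXT1 and HXT3 (0.19), and HXT3 and HXT4 (0.20). The first 2 of these pairs are close in sequence. Whether the probes of any of these pairs share signal was not tested. HXT2 and HXT5 were the least alike (1.20). Among all tested genes outside the family, the profile nearest to HXT1 was that of MIG3 (0.09), a gene of the Mig repressor family, which was also among the nearest 3 for HXT2 (0.22) and HXT3 (0.19). The profile nearest to HXT2 was that of BAG7 (0.20), which encodes a GTPase-activating protein for Rho1, and BAG7 was nearest to HXT13 (0.22) and HXT16 (0.19) too. The gene nearest to HXT4 was SLZ1 (0.09), to HXT5 RPM2 (0.11), a subunit of mitochondrial RNase P, to HXT6 UIP4 (0.05) and to HXT7 TMA10 (0.05). These values describe 12 arrays that share slides within a group.

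**Figure D3:**
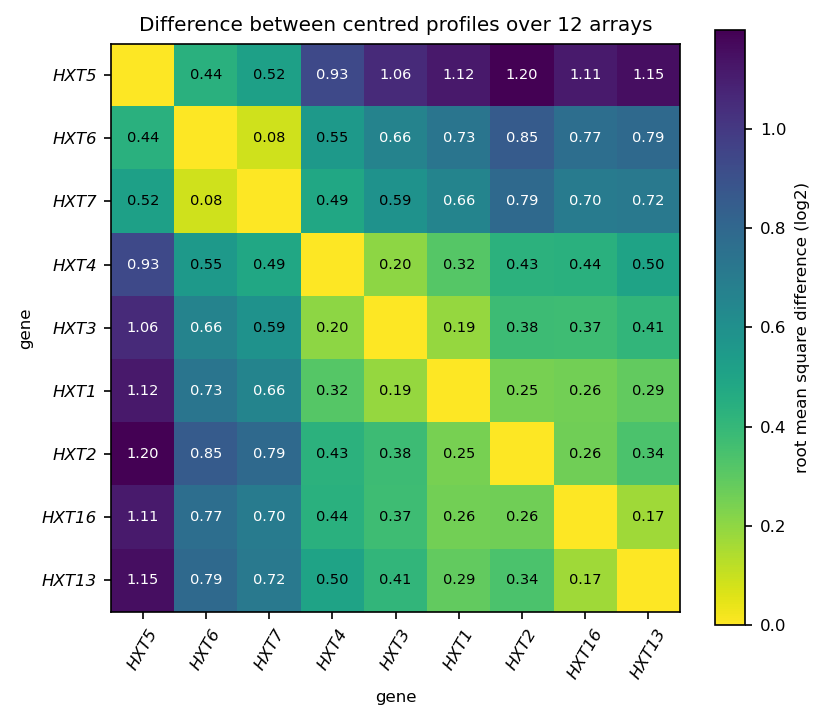
Root mean square difference between the centred profiles of 9 hexose transporter genes over the 12 arrays. Rows and columns are genes, colour and numbers give the difference in log2 units, and the diagonal is each gene with itself. HXT5 differs by 0.93 to 1.20 from HXT1 to HXT4, HXT13 and HXT16, and by 0.44 and 0.52 from HXT6 and HXT7.

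Of the other genes of the family, 7 of 8 had a probe and were tested; HXT12 was not analysed here. Against 112A, 0 were higher in 58F and 2 were lower. Against wild type, 3 were higher and 1 lower in 58F, and 4 higher and 0 lower in 112A. The totals are near the 32.2%, 61.7% and 48.3% of all genes called. HXT15 and HXT17, the relatives of HXT13 and HXT16, were higher than in wild type both in 58F (1.51 ± 0.21 and 1.08 ± 0.10) and in 112A (1.01 ± 0.21 and 1.00 ± 0.10), and neither was called between 58F and 112A. In wild type HXT15 was well above background on only 3 arrays (mean level -5.40), which makes its changes against wild type less certain. The profile of HXT17 differed from that of HXT13 by 0.25 and that of HXT15 by 0.27. HXT14 read -5.42, -5.38, -5.26 and -4.98 in 58F, -3.82, -3.74, -3.83 and -4.62 in 112A, and -4.72, -5.15, -5.01 and -4.59 in wild type. Its 58F arrays lay below all 112A arrays, 58F replicates 1 to 3 also lay below every wild type array and replicate 4 lay among them, and 112A replicates 1 to 3 lay above wild type. HXT14 was 2.40-fold lower in 58F than in 112A (-1.26 ± 0.19, adjusted p = 0.000696), and in 112A it was above wild type (0.87 ± 0.19, adjusted p = 0.00305). HXT10 was highest in 112A, with 58F between it and wild type (-0.29 ± 0.06 for 58F against 112A, adjusted p = 0.00268). GAL2, the galactose permease, which also carries glucose, had a profile close to that of HXT6 (difference 0.05). It was lower in 58F than in wild type (-0.40 ± 0.11, adjusted p = 0.0059), and its relatedness to HXT6 and HXT7 makes shared signal possible.

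The sensors and regulators of the family were read from a list of 17 genes, all tested. Against 112A, 6 were higher and 2 lower in 58F (median change 0.08). Against wild type, 4 were higher and 5 lower in 58F (median -0.03), and 4 higher and 6 lower in 112A (median -0.06). The shares of all genes called were 32.2%, 61.7% and 48.3%, and the totals against wild type are near them. STD1, which encodes a partner of the repressor Rgt1, read -1.91, -1.84, -1.85 and -1.96 in 58F, -2.67, -2.45, -2.98 and -2.58 in 112A, and -3.24, -3.35, -3.21 and -3.33 in wild type. The groups were ordered as for HXT1, with no overlap. STD1 was 1.72-fold higher in 58F than in 112A (change 0.78 ± 0.09, adjusted p = 0.000209) and 2.63-fold higher than in wild type (1.39 ± 0.09, adjusted p = 4.32e-07). Its relative MTH1 was lower in 58F, by a small amount, than in 112A (-0.18 ± 0.04, adjusted p = 0.00762) and than in wild type (-0.20 ± 0.04, adjusted p = 0.00147). MIG3 read -0.88, -0.73, -0.83 and -0.58 in 58F, -1.64, -1.24, -1.59 and -1.21 in 112A, and -2.54, -2.01, -2.11 and -2.05 in wild type. It too had 3 separate ranges and was 1.58-fold higher in 58F than in 112A (change 0.66 ± 0.13, adjusted p = 0.0031). Its relative MIG1 was higher in 58F than in 112A by 0.27 (± 0.07, adjusted p = 0.0153), and MIG2 was not called in any comparison.

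The sensor genes moved in opposite directions. SNF3, which encodes the sensor of low glucose, was lower in 58F than in 112A (-0.16 ± 0.05, adjusted p = 0.0208) and than in wild type (-0.63 ± 0.05, adjusted p = 6.29e-07). RGT2, which encodes the sensor of high glucose, was higher in 58F than in 112A (change 0.18 ± 0.04, adjusted p = 0.00484) and than in wild type (0.31 ± 0.04, adjusted p = 2.85e-05). In 112A against wild type, SNF3 was also lower (-0.47 ± 0.05, adjusted p = 1.43e-05) and RGT2 higher (0.13 ± 0.04, adjusted p = 0.0126). The repressor gene RGT1 was lower than in wild type in 58F (-0.37 ± 0.06) and in 112A (-0.21 ± 0.06), and missed the threshold between 58F and 112A (adjusted p = 0.0574).

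**Figure D4:**
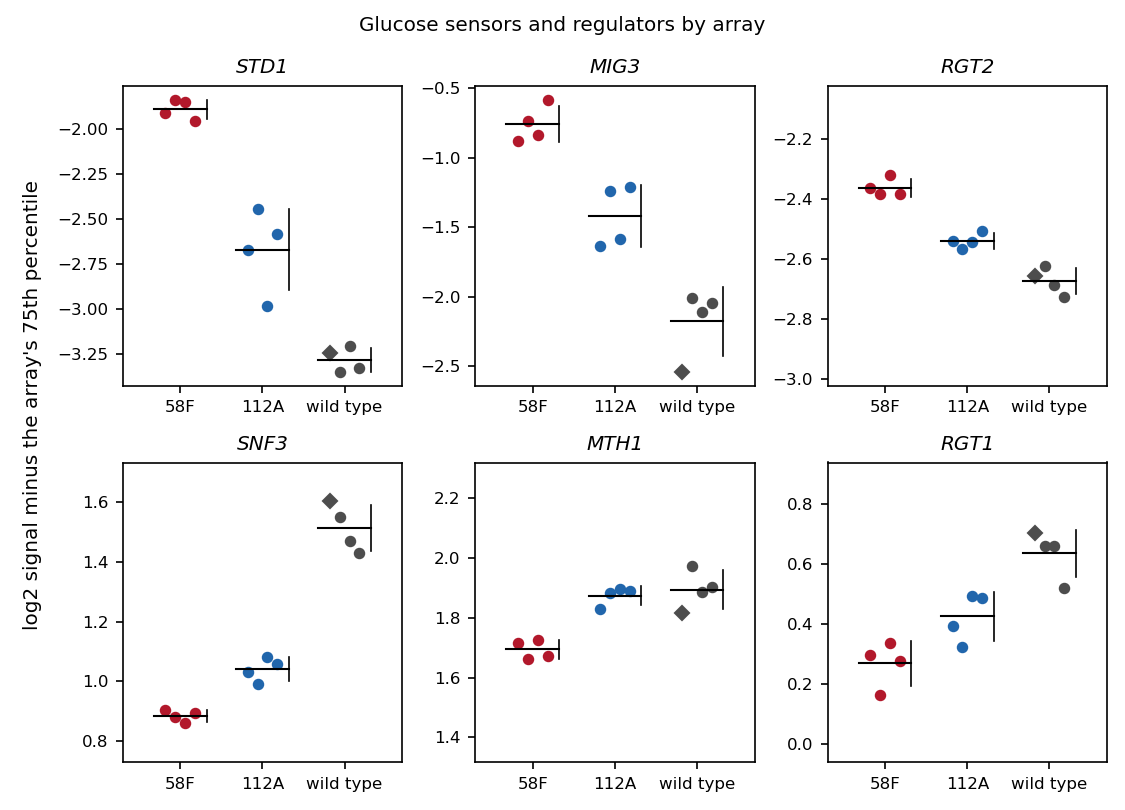
Level of 6 genes of glucose sensing and repression on every array. The vertical axis is the log2 signal minus the array's 75th percentile, on a scale of its own in each panel; points are arrays, horizontal lines group means and vertical lines 1 SD, and the diamond is wild type replicate 1. STD1, MIG3 and RGT2 are highest in 58F and lowest in wild type, and SNF3 is the reverse.

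The hexokinases phosphorylate the sugar once it has entered. Of 4 genes, 1 was higher and 0 lower in 58F than in 112A, 2 were higher and 1 lower in 58F than in wild type, and 0 higher and 1 lower in 112A than in wild type, beside 32.2%, 61.7% and 48.3% of all genes called. HXK2, the main hexokinase in glucose, was higher in 58F than in wild type (0.50 ± 0.17, adjusted p = 0.0235), in a fit where 1 of the 58F arrays had no value. EMI2 was higher in 58F than in 112A (change 0.26 ± 0.07, adjusted p = 0.0124).

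Most of a list of genes known to be repressed by glucose were lower in 58F. The list was chosen with earlier results of these data known, so its counts are not an independent test. Of 12 genes, 0 were higher and 8 lower in 58F than in 112A (median change -0.53), 0 higher and 10 lower in 58F than in wild type (-0.75), and 0 higher and 8 lower in 112A than in wild type (-0.35), where 18.5%, 33% and 25.6% of all genes were lower. FBP1, an enzyme of gluconeogenesis, was 4.66-fold lower in 58F than in wild type (-2.22 ± 0.15, adjusted p = 4.32e-07), and MLS1, of the glyoxylate cycle, was 4.49-fold lower (-2.17 ± 0.18, adjusted p = 1.86e-06). Both FBP1 and MLS1 were also lower in 112A than in wild type (-1.09 ± 0.15 and -1.21 ± 0.18). Between 58F and 112A their changes were -1.13 ± 0.15 and -0.95 ± 0.18. SUC2, which encodes invertase, read 3.07, 3.00, 3.01 and 3.23 in 58F, 3.78, 3.50, 4.18 and 3.63 in 112A, and 3.93, 3.93, 3.88 and 3.79 in wild type. Its 58F arrays lay below all others, and it was 1.61-fold lower in 58F than in 112A (-0.69 ± 0.12, adjusted p = 0.00143). HAP4, an activator of respiratory genes, was lower in 58F than in 112A (-0.49 ± 0.06, adjusted p = 0.000167) and than in wild type (-0.88 ± 0.06, adjusted p = 3.06e-07). ACS1 and CYB2 were called in no comparison.

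Of 7 genes for the ubiquitination and endocytosis of transporters, 2 were higher and 1 lower in 58F than in 112A, 2 higher and 1 lower in 58F than in wild type, and 0 were called in 112A against wild type. The shares of all genes called were 32.2%, 61.7% and 48.3%. The arrestin-related adaptor genes ROG3 (0.24 ± 0.06) and ECM21 (0.28 ± 0.07) were higher in 58F than in 112A, and ROD1, of the same kind, was lower in 58F than in wild type (-0.40 ± 0.08).

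**Figure D5:**
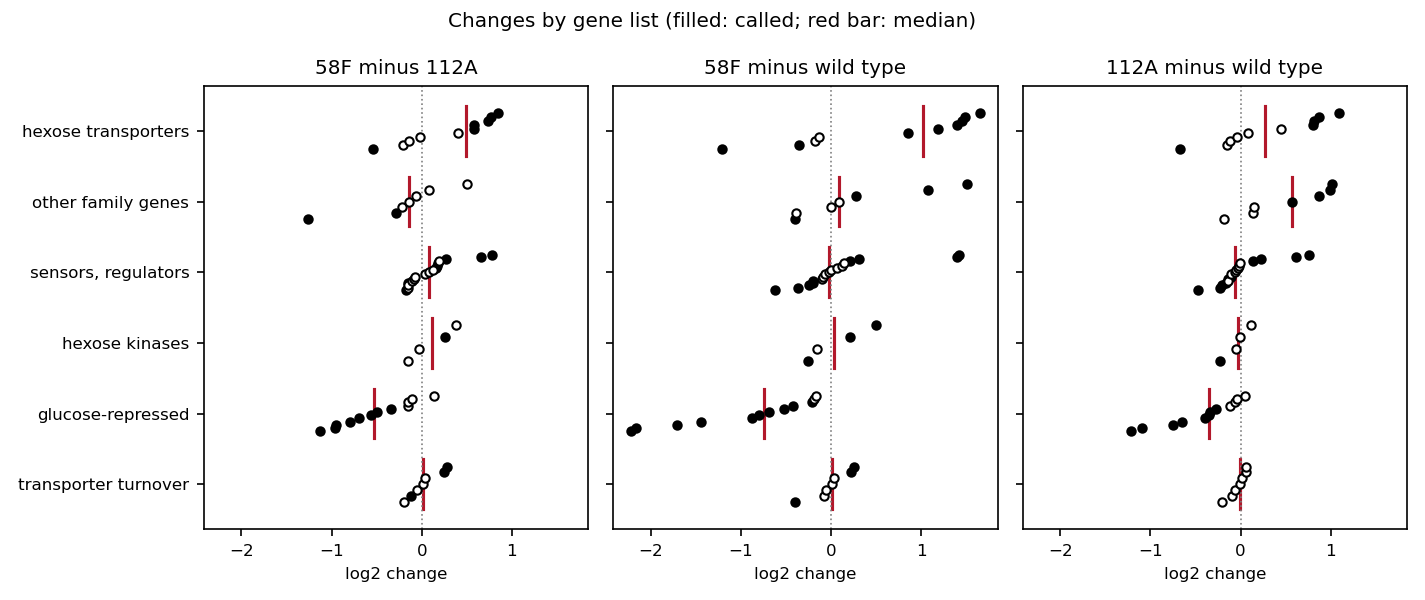
Changes of the hexose transporter genes and of 5 lists of related genes. The horizontal axis is the log2 change between group means, each point is a gene, filled points had an adjusted p under 0.05, and the red bar is the list's median. The glucose-repressed genes have medians of -0.53, -0.75 and -0.35, and the hexose transporters 0.49, 1.02 and 0.27.

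Members lie in clusters by the gene order of assembly R64, with HXT7, HXT6 and HXT3 together on chromosome IV and HXT4, HXT1 and HXT5 on chromosome VIII. Within the clusters the members differed in direction: HXT1 and HXT4 were higher in 58F while HXT5, next to HXT1, was lower, and HXT3 was higher while HXT6 was lower than in wild type. Of 10 genes beside or within the clusters, chosen by position after the members' values were seen, 7 had a probe. Their changes ran from -0.27 to 0.07 in 58F against 112A, with 0 higher and 2 lower, and from -0.46 to 0.19 in 58F against wild type, with 1 higher and 3 lower. In 112A against wild type they ran from -0.22 to 0.15, with 1 higher and 2 lower. These totals are near the shares of all genes called (32.2%, 61.7% and 48.3%).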

How the data were processed

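Transcripts of 12 yeast samples were measured on single-colour Agilent arrays from Cy3-labelled copies of 200 ng of polyadenylated RNA; samples with an RNA integrity number under 8.0 were discarded, per the labels' protocols. The deposited array files hold the output of Feature Extraction 10.7.3.1, whose processed signal is, per the file headers, an intensity with background subtracted and not scaled between arrays. A second deposited file gives 5297 probes as log2 values, which follow the log2 processed signal of each array (lowest r across probes 0.999) with column medians of 11.27 to 11.37; how it was filtered is not given in the sources used here.

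Here, log2 of the processed signal was averaged over the 2 spots of a probe, outlier-flagged spots left out, and the array's 75th percentile subtracted. A gene with several probes took the probe with the highest mean signal. Genes well above background on at least 4 of 12 arrays were tested, 5827 in all, using lmFit and eBayes of limma 3.58.1 (R 4.3.3; all 12 arrays in the fit, 2-sided), with Benjamini-Hochberg adjustment over all genes tested. The fit was tested on simulated data with independent noise. That simulation held no slide or array effect, so it says nothing about such effects in these calls. Of 6224 genes, 5642 were matched to names of assembly R64; coordinates are left out because the array files use a different build. The number of arrays limits the precision.

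The 75th percentile can be taken over probes, over all gene spots or over spots without outlier flags. All 3 forms were run and their counts of called genes seen before the form over probes was kept, because its counts match an earlier analysis of these files; the other forms are given as alternatives. A planned normexp alternative used median signals, since mean signals are not among the columns here. Named genes are all members, the nearest profiles, those the members are set beside, and some of the called genes of each list. Not every called gene with a large change is named above. For example, PCK1 (-1.71 ± 0.18) and ICL1 (-1.44 ± 0.17), of the glucose-repressed list, were also lower in 58F than in wild type. The members and lists were chosen with earlier results of these data known. Other alternatives covered scaling, background, filters, the deposited table, the model and each array left out.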

Additional observations from a re-analysis of the deposited data

Results flagged for a closer look

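Wild type replicate 1 lay far from the other 3 wild type arrays for 5 hexose transporter genes, by Dixon's test at the 95% level, in log2 levels relative to the array's 75th percentile. HXT1 was at -1.37 there, against -0.99 to -0.94 on the others. HXT3 was at 0.46 against 1.13 to 1.21, and HXT4 at -0.63 against -0.08 to 0.01. HXT6 was at 5.72 against 6.17 to 6.24, and HXT7 at 6.06 against 6.59 to 6.68. In all, 30 groups were checked and 5 stood out; chance alone marks about 1 in 20 groups, and these 5 share 1 array. The same array had the highest 75th percentile of signal of the 12 (9326), and the part of this in the levels was not tested.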

How the results depend on the processing

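Each change of each member was recomputed under up to 26 alternatives, and 19 of 30 kept their direction and side of the threshold under every one of them. All calls of HXT1, HXT2, HXT5 and HXT16 were kept, as were those of HXT3 and HXT4 in 58F against both other groups and of HXT13 against wild type. Quantile scaling raised the members called in 112A against wild type from 5 to 8, and the all-gene split in 58F against 112A from 799 higher and 1078 lower to 1073 and 952. No other count of called members or genes moved by over 1.5 times; with each array left out, the members called were 6 to 9, 8 to 9 and 5 to 7. The change of HXT3 in 112A against wild type was called under 9 alternatives (0.27 to 0.60 over all) and that of HXT13 in 58F against 112A under 8 (0.12 to 0.55).

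The sign turned for HXT4, HXT7 and HXT8 in comparisons where they were not called, and no turned value was called; the cause was not tested. HXT7 turned with cyclic loess to 0.029 (58F against 112A), 0.13 (58F against wild type) and 0.10 (112A against wild type), and with arrays left out its last change ran from -0.18 to 0.023. HXT8 in 58F against 112A became 0.054 with quantile scaling, 0.21 with cyclic loess and 0.0019 with the percentile over spots without outlier flags, and ran from -0.21 to 0.12 with arrays left out; in 112A against wild type it became 0.24 with normexp background and 0.17 with no background subtracted. HXT4 in 112A against wild type ran from -0.061 to 0.18 with arrays left out.

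The 2 forms of the percentile over spots, chosen after seeing the data, gave 1862 and 1871 called genes in 58F against 112A, against 1877. The form without outlier flags also called HXT13 there (adjusted p = 0.049) and split the calls into 920 higher and 951 lower.

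Same-numbered arrays shared a position on their slides, but of 12 correlations of their deviations from the group means only 5 were over 0.1 (-0.17 to 0.19), and an array was best matched by its own number in 9 of 24 cases, so the numbers were not taken as pairs. With the replicate number as a block, 1714, 3501 and 2646 genes were called, with 6, 8 and 6 members; HXT3 in 112A against wild type was then called (adjusted p = 0.0473), and no other member's call changed.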
